A study of Mus musculus with 2 samples.

Results

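Antigen presentation on MHC class II was followed through 10 genes of 32285 listed in the files: H2-Aa, H2-Ab1, H2-Eb1, Cd74, Ciita, H2-DMa, H2-DMb1, H2-DMb2, H2-Oa and H2-Ob. All 10 were found by symbol, and their raw unique molecular identifiers (UMIs, one per captured RNA molecule) were summed in each class of cells of 2 libraries. Both libraries came from unsorted live cells of tumors that grew after KPC cells, a mouse pancreatic cancer line, were injected into the pancreas of male mice. Both hosts carried floxed alleles of MCT1, the lactate carrier encoded by Slc16a1. In the library labelled FLOX this allele was meant to be intact, and in the library labelled MCT1-KO it was to be deleted by tamoxifen through Col1a2-CreERT2, a Cre that is active in collagen-making cells such as pancreatic stellate cells (PSCs). The deletion was thus aimed at cells of the host and not at the implanted tumor cells, and the study describes injections of tamoxifen or corn oil before implantation, while the labels do not say which of them the FLOX host received. With 1 library per group, genotype, animal, dissection and library preparation cannot be told apart, and no comparison between the libraries was tested. Intervals are 95% intervals for counting error only.

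MHC class II molecules are pairs of an alpha and a beta chain that show peptides from the endosome to CD4+ T cells. The chains are made with the invariant chain Cd74, which fills the peptide groove on the way to the endosome. There H2-DM helps peptides replace the remnant of the invariant chain, and H2-DO, made mainly in B cells and some dendritic cells, restrains H2-DM. Ciita is the coactivator that switches the whole gene set on, constitutively in dendritic and B cells and after interferon gamma in macrophages and many other cells. In mice of the C57BL/6 strain the I-A pair (H2-Aa with H2-Ab1) is shown at the cell surface, whereas the H2-Eb1 chain lacks its partner. H2-Aa, H2-Ab1 and H2-Eb1 are called the classical chains below, and their UMIs were added together.

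Of the 10 genes, 8 lie on chromosome 17 within 224 kb (GRCm38, GENCODE vM21, chr17:34092340-34316674). Ciita lies on chromosome 16 (chr16:10480059-10528418, plus strand) and Cd74 on another chromosome. RefSeq promoter windows of 300 bases (GRCm38.p6, 250 before and 50 after a start site) were at hand for 7 of the 10. They are shown because the members share a control region upstream of their start sites, in which RFX proteins bind the X box and NF-Y the Y box before Ciita joins them. The letters GATTGG, the Y box read on the gene strand, were searched on both strands. They stood in a window of all 7 genes, against 16.1% of 32851 windows of all genes. In 6 of the 7 an AAC preceded GATTGG on the gene strand by 20 to 32 bases, an arrangement held by 1.17% of all windows. Both patterns were chosen after the sequences had been seen. Capitals mark the 5 bases that end in AAC and the GATTGG, and each line runs 5′ to 3′ on the gene strand.
H2-Aa (chr17:34287859-34287912, minus strand): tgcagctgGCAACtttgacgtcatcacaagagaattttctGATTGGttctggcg
H2-Eb1 (chr17:34305768-34305820, plus strand): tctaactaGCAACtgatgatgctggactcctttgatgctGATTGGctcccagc
H2-DMb1 (chr17:34153089-34153142, plus strand): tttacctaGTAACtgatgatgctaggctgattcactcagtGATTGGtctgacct
H2-DMb2 (chr17:34145118-34145171, plus strand): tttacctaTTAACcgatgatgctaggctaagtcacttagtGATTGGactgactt
H2-Oa (chr17:34092295-34092348, plus strand): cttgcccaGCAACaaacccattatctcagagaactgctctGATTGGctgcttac
H2-Ob (chr17:34238810-34238860, plus strand): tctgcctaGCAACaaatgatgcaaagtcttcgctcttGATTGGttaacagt

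The spacing between the capitals was 27 bases in H2-Aa, H2-DMb1, H2-DMb2 and H2-Oa, 26 in H2-Eb1 and 24 in H2-Ob. One of the 2 windows of H2-DMa held GATTGG and neither held the pair. The match is a description of letters and not a mapped binding site.

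After filtering, 8739 cells of the FLOX library and 11689 of the library labelled MCT1-KO were kept, with 61149689 and 81494894 UMIs and a median of 4069 and 3706 UMIs per cell. The libraries shared 59 barcodes. Clustering without the class II genes gave 23 clusters, of which 18 could be named as 10 classes by markers. The other 5 held 22.9% and 29.3% of the cells. Every marker of every class had at least 1 UMI in its class in both libraries. The name ductal-like, for 5 clusters of presumed tumor cells, was the weakest, since its 9 markers summed to 1355 and 1759 counts per 1000000 UMIs (CPM) in these clusters and to 1377 and 1635 CPM in free RNA. Each of these clusters had 6 of the 9 markers in at least 10% of its cells. The median log2 fold of the markers over all cells outside the cluster ran from -0.63 to 1.09. It was -0.44 in the ductal-like cluster led by interferon-induced genes. Barcodes of 10 to 100 UMIs, too few for a cell, gave the level of free RNA. In PSC-like cells of the library labelled MCT1-KO, Slc16a1 showed no lower level, and 112 UMIs gave 35.5 CPM against 57 UMIs and 25.5 CPM in the FLOX library (ratio 1.39, interval 1.00 to 1.95). The libraries also differed in RNA that does not belong to class II. The heat shock genes Hspa1a, Hspa1b, Hsph1, Dnajb1 and Hsp90aa1 summed to 3703 CPM over all kept cells of the FLOX library and 1075 CPM in the other. In acinar-like cells alone they were at the same level, 1135 and 1133 CPM. In free RNA 10 acinar enzyme genes summed to 345 and 18302 CPM.

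Dendritic-like cells held the most classical chain RNA in both libraries, followed by myeloid-like cells and B-like cells. In dendritic-like cells, 116 in the FLOX library and 108 in the library labelled MCT1-KO, the 3 chains summed to 23971 CPM (23692 to 24252) and 24462 CPM (24095 to 24834). In 2240 and 1911 myeloid-like cells they summed to 15539 CPM (15475 to 15603) and 9158 CPM (9099 to 9217). In 32 and 178 B-like cells the sums were 10437 CPM (9662 to 11257) and 7950 CPM (7625 to 8284). The intervals of these 3 classes did not overlap within a library.

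All other named classes lay below the level of free RNA, which was 5017 CPM in the FLOX library and 2239 CPM in the library labelled MCT1-KO. Plasma-like cells gave 2461 and 1517 CPM, ductal-like cells 2278 and 1001 CPM, and PSC-like cells 1732 and 1493 CPM. Endothelial-like cells gave 1358 and 456 CPM, neutrophil-like cells 855 and 310 CPM, T/NK-like cells 744 and 331 CPM, and acinar-like cells 717 and 1055 CPM. The order of plasma-like and ductal-like cells in the FLOX library rests on intervals that barely part (2299 to 2632 against 2262 to 2294 CPM). The acinar-like value of the FLOX library came from 48 UMIs in 31 cells.

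**Figure D1:**
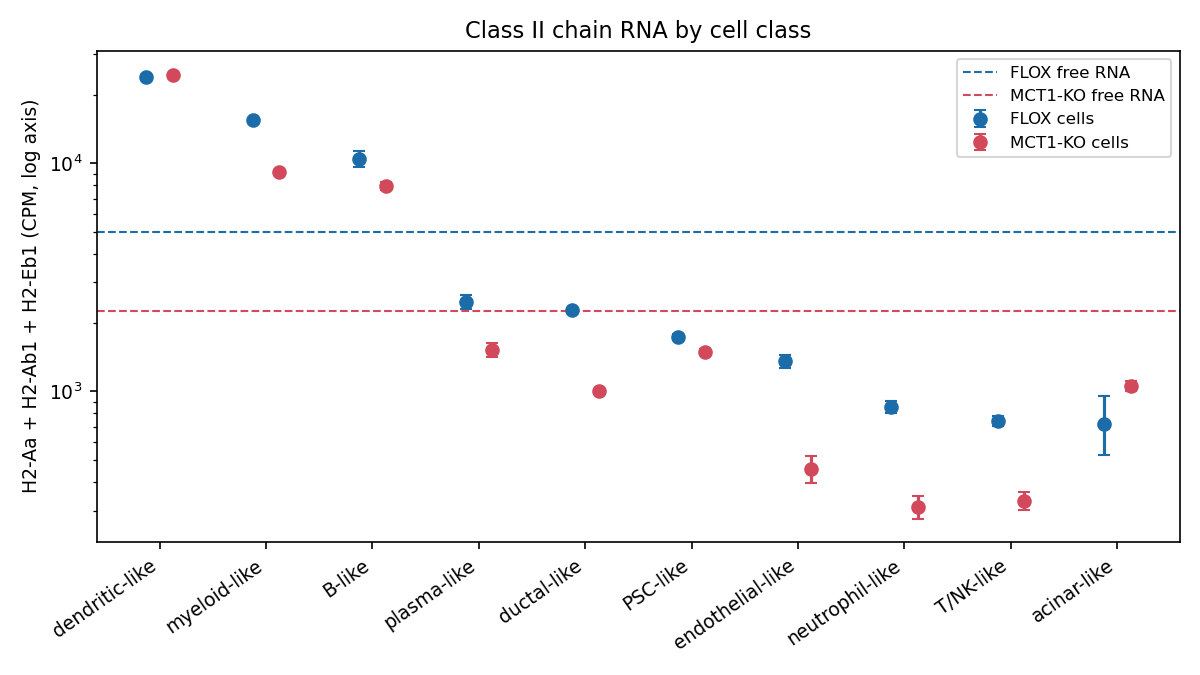
Sum of H2-Aa, H2-Ab1 and H2-Eb1 in each cell class, in CPM on a log axis, with 1 point per library (blue FLOX, red MCT1-KO), bars for the 95% counting interval and dashed lines for free RNA. Dendritic-like cells lie together at 23971 and 24462 CPM, while myeloid-like cells lie at 15539 and 9158 CPM and most other classes lie below the free RNA line of their library.

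The ratio between the libraries was not the same in the classes that present antigen to T cells. In dendritic-like cells the classical chains were at a ratio of 1.02 (1.00 to 1.04, MCT1-KO over FLOX), and in myeloid-like cells, which are mainly macrophages by their markers, at 0.589 (0.585 to 0.594). B-like cells lay between them at 0.762 (0.699 to 0.831). In free RNA the same ratio was 0.446 (0.442 to 0.451).

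In myeloid-like cells all 10 members had a ratio below 1, with an interval that held 1 for H2-DMb2 and H2-Oa, and 5 of them were at least 1.5-fold lower, against 9.24% of the 11152 genes with at least 50 UMIs in this class. None was 1.5-fold higher (6.71% of genes). H2-Eb1, a beta chain, stood at 4750 CPM in the FLOX library and 2469 CPM in the other, a ratio of 0.520 (0.512 to 0.527). H2-Ab1, the beta chain of I-A, stood at 5211 and 3045 CPM (0.584, 0.577 to 0.592). Its alpha partner H2-Aa stood at 5579 and 3644 CPM (0.653, 0.645 to 0.661). The 3 chains thus differed in ratio by more than their counting error, with H2-Eb1 lowest. Their order was the same in free RNA, at 0.506 for H2-Aa, 0.423 for H2-Ab1 and 0.404 for H2-Eb1. Cd74, the invariant chain, was at 12642 and 8593 CPM (0.680, 0.674 to 0.685), just short of 1.5-fold.

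The gene with the lowest ratio was Ciita, the coactivator itself. It was at 52.3 CPM (769 UMIs) in myeloid-like cells of the FLOX library and 13.9 CPM (143 UMIs) in the library labelled MCT1-KO, a ratio of 0.266 (0.221 to 0.319). At least 1 Ciita UMI was found in 25.1% and 6.80% of the cells, and after each cell was thinned to 1000 UMIs in 5.63% (4.71 to 6.67) and 1.26% (0.810 to 1.87). In T/NK-like cells, which should hold little Ciita, the thinned shares were 0.596% and 0.226%. Free RNA held 9.61 and 4.59 CPM of Ciita.

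The peptide loading genes had unequal ratios. H2-DMa, the alpha chain of H2-DM, was at 542 and 374 CPM (0.691, 0.665 to 0.718), and H2-DMb1, a beta chain, at 355 and 278 CPM (0.782, 0.747 to 0.819). H2-DMb2, the other beta chain gene, was rare at 9.52 and 8.67 CPM (0.911, 0.690 to 1.20). H2-DMb1 and H2-DMb2 are close copies, so that reads may have been split between them. H2-Ob, the beta chain of H2-DO, was at 7.68 and 2.92 CPM (0.380, 0.245 to 0.573) and H2-Oa, the alpha chain, at 2.92 and 2.24 CPM (0.767, 0.441 to 1.30). The median ratio of the 10 members was 0.666 in myeloid-like cells, beside 1.00 for all genes tested.

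**Figure D2:**
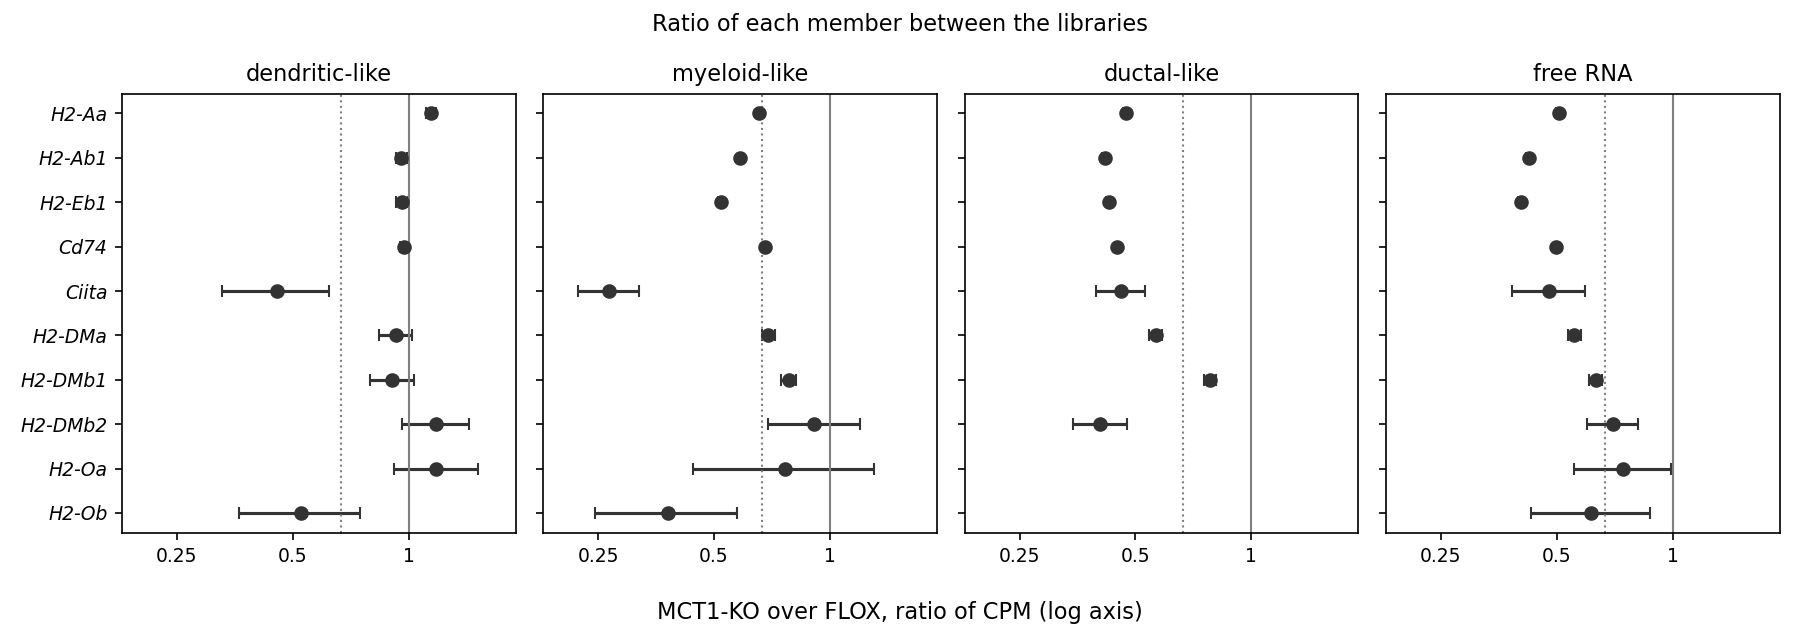
Ratio of each member between the libraries (MCT1-KO over FLOX, ratio of CPM on a log axis) in dendritic-like, myeloid-like and ductal-like cells and in free RNA, with 95% counting intervals, a solid line at 1 and a dotted line at 1.5-fold lower. Members with fewer than 50 UMIs in a class are left out. The classical chains lie at 0.520 to 0.653 in myeloid-like and near 1 in dendritic-like cells, while Ciita lies below the dotted line in all 4 panels.

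The lower level was found in each of the 3 myeloid-like clusters. The cluster with high C1q genes, markers of resident-type macrophages, held 16638 and 9854 CPM of the classical chains (0.592, 0.586 to 0.598). The cluster led by Arg1 held 15052 and 9392 CPM (0.624, 0.616 to 0.632). The cluster of dividing cells, led by histone genes, held 12657 and 4889 CPM (0.386, 0.375 to 0.398), the lowest ratio of the 3. Weighting the clusters of both libraries by their share of UMIs in the FLOX library gave 0.578. Ciita had ratios of 0.280, 0.246 and 0.202 in the same order, and 6 macrophage genes (C1qa, C1qb, C1qc, Lyz2, Apoe and Csf1r) had summed ratios of 1.12, 1.09 and 0.984.

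Single cells at equal depth showed a shift over the whole class. After thinning to 1000 UMIs the median myeloid-like cell held 13 classical chain UMIs in the FLOX library (2221 cells) and 6 in the library labelled MCT1-KO (1901 cells). The share of cells with at least 1 such UMI was 95.4% (94.5 to 96.2) and 83.2% (81.4 to 84.8). In dendritic-like cells the median was 25 UMIs in both libraries (111 and 96 cells), with a lower quartile of 16 and 15.8 UMIs. In T/NK-like cells, which in mice make next to no class II, 40.8% and 16.5% of thinned cells held a classical chain UMI. This is a background for that class, and other classes may have another. By collagen genes, free RNA made up 8.41% of myeloid-like and 33.0% of ductal-like UMIs in the FLOX library. By acinar genes it made up 35.4% and 13.6%. In the library labelled MCT1-KO these shares were 8.27% and 26.5% by collagen genes and 13.45% and 4.35% by acinar genes. They take it that the cells make none of these genes themselves, which was not tested.

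**Figure D3:**
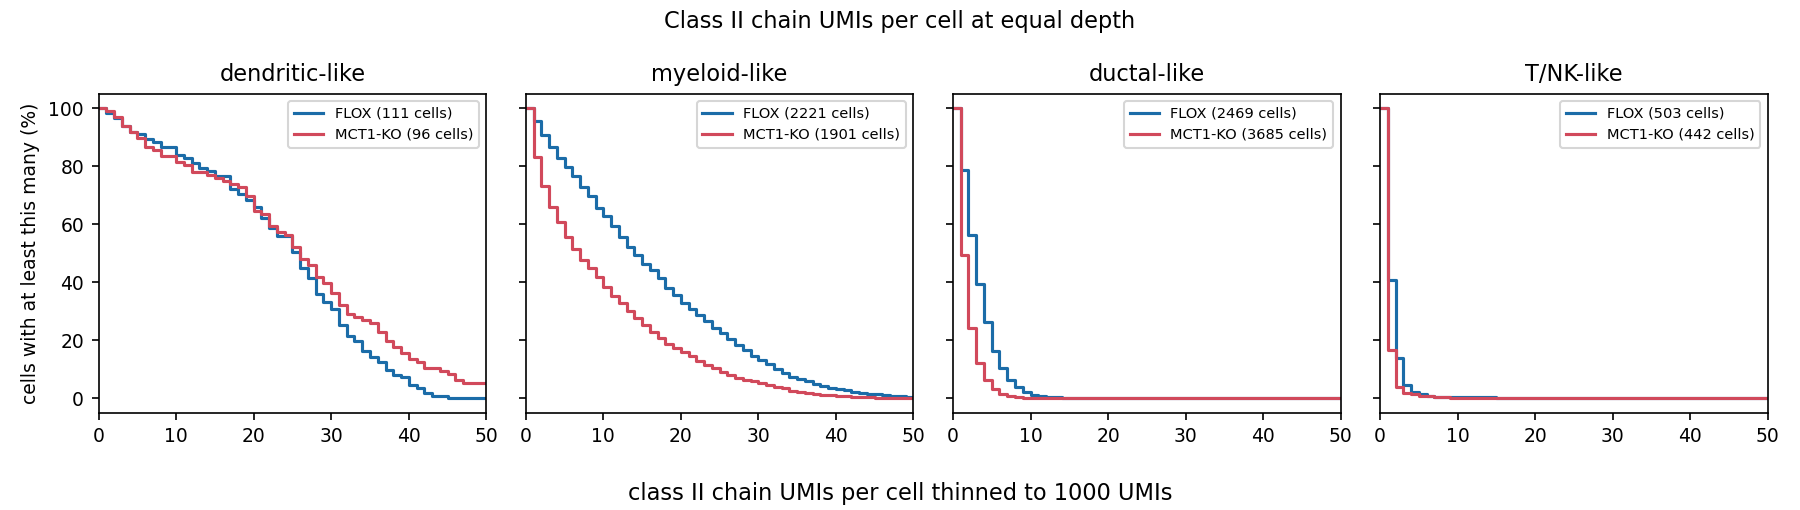
Share of cells (%) with at least a given number of classical chain UMIs, each cell thinned to 1000 UMIs, for dendritic-like, myeloid-like, ductal-like and T/NK-like cells of both libraries (blue FLOX, red MCT1-KO). The curves of dendritic-like cells share a median of 25 UMIs, whereas in myeloid-like cells the median is 13 in FLOX and 6 in MCT1-KO.

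Heat shock RNA was also lower in the MCT1-KO cells. In myeloid-like cells the 5 heat shock genes summed to 2975 CPM in the FLOX cells and 525 CPM in the MCT1-KO cells, a ratio of 0.176. In all thinned myeloid-like cells, 2221 and 1901, the classical chains were at a ratio of 0.603, and 4 members were at least 1.5-fold lower. Among those with no UMI of Hspa1a or Hspa1b, 1001 and 1725 cells were left. In these the classical chains were at a ratio of 0.694, and 2 members were at least 1.5-fold lower. A member still needed 50 UMIs after thinning, so the number of members that could be counted may differ. The share of all genes past 1.5-fold was not taken in thinned cells. In dendritic-like cells the heat shock genes were at a ratio of 0.195 and the classical chains at 1.02. Leaving out cells with such a UMI took away more of the FLOX cells. The part of cell stress in either class was not tested.

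Dendritic-like cells differed little in the chains and Cd74 and more in Ciita and H2-Ob. Of the 10 members 2 were at least 1.5-fold lower (13.1% of 4479 genes in this class) and none was 1.5-fold higher (9.29%). Ciita was at 166 CPM (196 UMIs) and 75.3 CPM (52 UMIs), a ratio of 0.454 (0.328 to 0.619). H2-Ob was at 116 and 60.8 CPM (0.525, 0.362 to 0.746), while H2-Oa was at 134 and 158 CPM (1.18, 0.917 to 1.52). H2-Aa was higher in the library labelled MCT1-KO, with 7989 and 9138 CPM (1.14, 1.11 to 1.18). H2-Ab1 with 8866 and 8486 CPM (0.957, 0.927 to 0.988), H2-Eb1 with 7116 and 6838 CPM (0.961, 0.927 to 0.996) and Cd74 with 16501 and 16095 CPM (0.975, 0.953 to 0.998) were slightly lower. H2-DMa (0.926), H2-DMb1 (0.904) and H2-DMb2 (1.18) each had an interval that held 1. Subtracting free RNA took the ratio of the summed chains in dendritic-like cells from 1.02 to 0.801 when its share was taken from the acinar genes, and to 1.04 when it was taken from the collagen genes.

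The dendritic-like cells carried markers of several kinds, and the ratios of the groups below ran from 0.926 to 1.40. Their intervals leave out the spread between cells, and some groups held few cells. Whether the groups differ was not tested. Cells with a UMI of Xcr1 or Clec9a, markers of cross-presenting type 1 dendritic cells, and none of Ccr7 or Fscn1 numbered 62 and 34. They held 24604 and 22788 CPM of the classical chains (0.926, 0.900 to 0.953). Cells with a UMI of Ccr7 or Fscn1, markers of migrating dendritic cells, and none of the first pair numbered 18 and 23 and held 15321 and 21511 CPM (1.40, 1.33 to 1.49). In the latter group the 6 macrophage genes were at 951 and 2674 CPM, whereas they were at 2237 and 541 CPM in the Xcr1 or Clec9a group. Cells with a UMI of Cd209a or Mgl2, type 2 markers that may overlap with the other groups, numbered 45 and 29 and held 26395 and 28566 CPM (1.08, 1.05 to 1.11), with macrophage genes at 1835 and 526 CPM. The 11 and 6 cells with UMIs of both pairs held 21591 and 28949 CPM (1.34, 1.26 to 1.43), and the 25 and 45 cells with neither held 29752 and 28025 CPM (0.942, 0.906 to 0.979). Sorting by a single UMI depends on depth, and the median dendritic-like cell had 9962 and 5966 UMIs. The part of this mixture and of macrophage RNA in the level of the whole class was not tested.

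B-like cells, which present antigen to helper T cells, had few UMIs. Of the 9 members with at least 50 UMIs, 3 were at least 1.5-fold lower in the library labelled MCT1-KO (19.1% of 965 genes) and none was higher (14.9%). The 6 macrophage genes were at 2489 and 1442 CPM in these cells (0.579, 0.481 to 0.700) and the heat shock genes at a ratio of 0.247, and their part in the count was not tested. H2-Ab1 was at 3251 and 2120 CPM (0.652, 0.556 to 0.767), H2-DMb2 at 467 and 292 CPM (0.625, 0.407 to 0.984) and H2-Ob at 529 and 316 CPM (0.598, 0.399 to 0.916). Ciita was at 171 CPM from 11 UMIs and 141 CPM from 40 UMIs (0.822, 0.414 to 1.78), a comparison that this depth could not resolve.

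The most H2-DO for a given amount of H2-DM was found in B-like cells. They held 70.1 H2-DO UMIs (H2-Oa and H2-Ob) per 100 H2-DM UMIs in the FLOX library (47.3 to 103), against 57.3 (45.6 to 71.6) in the library labelled MCT1-KO. Dendritic-like cells held 14.2 (12.5 to 16.0) and 13.1 (11.0 to 15.5). Myeloid-like cells held 1.17 and 0.781 and ductal-like cells 0.204 and 0.131, below the 1.42 and 1.63 of free RNA. T/NK-like cells held 14.1 (8.90 to 21.5) and 25.8 (15.8 to 40.8), the latter above dendritic-like cells. Plasma-like cells held 9.38 and 23.1, from 6 H2-DO UMIs in each library. Most H2-DO UMIs of kept cells were nevertheless in dendritic-like and B-like cells together: dendritic-like and B-like cells, 1.93% and 0.105% of the UMIs of kept cells in the FLOX library, carried 52.1% and 8.30% of all H2-DO UMIs there, and in the other library 0.847% and 0.349% of the UMIs carried 38.2% and 31.9%. T/NK-like cells held H2-Oa at 11.6 CPM (7.44 to 17.3) and 15.1 CPM (9.65 to 22.4), from 24 UMIs in each library, above the 4.21 and 3.12 CPM of free RNA, while their H2-Ob count was 1 and 0 UMIs.

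In ductal-like cells, the presumed tumor cells, 7 of the 8 members with at least 50 UMIs were at least 1.5-fold lower in the library labelled MCT1-KO, against 8.79% of 13262 genes, and none was higher (5.59%). The 6 macrophage genes were at 1134 and 493 CPM in the same cells, a ratio of 0.435 (0.428 to 0.442) beside 0.440 for the classical chains, and their part in the result was not tested. Cd74 was at 2756 and 1231 CPM (0.447, 0.442 to 0.451), H2-Ab1 at 769 and 320 CPM (0.417, 0.409 to 0.425) and H2-Aa at 795 and 376 CPM (0.473, 0.465 to 0.482). Ciita was at 12.5 and 5.71 CPM (0.458, 0.395 to 0.531), and H2-DMb1 at 153 and 120 CPM (0.780, 0.752 to 0.809) was the one that did not reach 1.5-fold. H2-Oa had 14 and 6 UMIs and H2-Ob 8 and 9. The summed chains were lower in all 5 ductal-like clusters, at ratios from 0.396 to 0.531. In thinned cells the share with a classical chain UMI was 78.7% (77.0 to 80.3) and 49.3% (47.7 to 50.9), above the share in T/NK-like cells of the same library. The background of ductal-like cells may differ from that of T/NK-like cells, and this was not tested.

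The ratio of ductal-like cells, 0.440 (0.435 to 0.444), was close to that of free RNA at 0.446, so the proportion of class II to macrophage RNA was compared with that of free RNA. Free RNA held 35.5 classical chain UMIs per 100 UMIs of the 6 macrophage genes in the FLOX library, against 20.9 in the library labelled MCT1-KO. Ductal-like cells held 201 (198 to 203) and 203 (200 to 206), that is 5.66 and 9.71 times the proportion in free RNA. T/NK-like cells (41.3 and 39.7), endothelial-like cells (39.5 and 30.1) and neutrophil-like cells (28.0 and 17.7) lay at 0.788 to 1.89 times it. Acinar-like cells, which are not known to make class II, lay at 36.9 and 74.6, or 1.04 and 3.57 times it. By cluster, the ductal-like values ran from 2.69 to 10.9 times the proportion in free RNA in the FLOX library and from 6.56 to 14.3 times in the library labelled MCT1-KO. A pair of unnamed clusters of few UMIs per cell lay at 2.80 and 1.93 times it in the FLOX library and at 5.81 and 3.60 times in the other. The classical chain to Cd74 ratio was 0.827 and 0.813 in ductal-like cells and 1.13 and 1.01 in free RNA. How the free RNA within a well compares with that in barcodes of few UMIs was not tested.

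**Figure D4:**
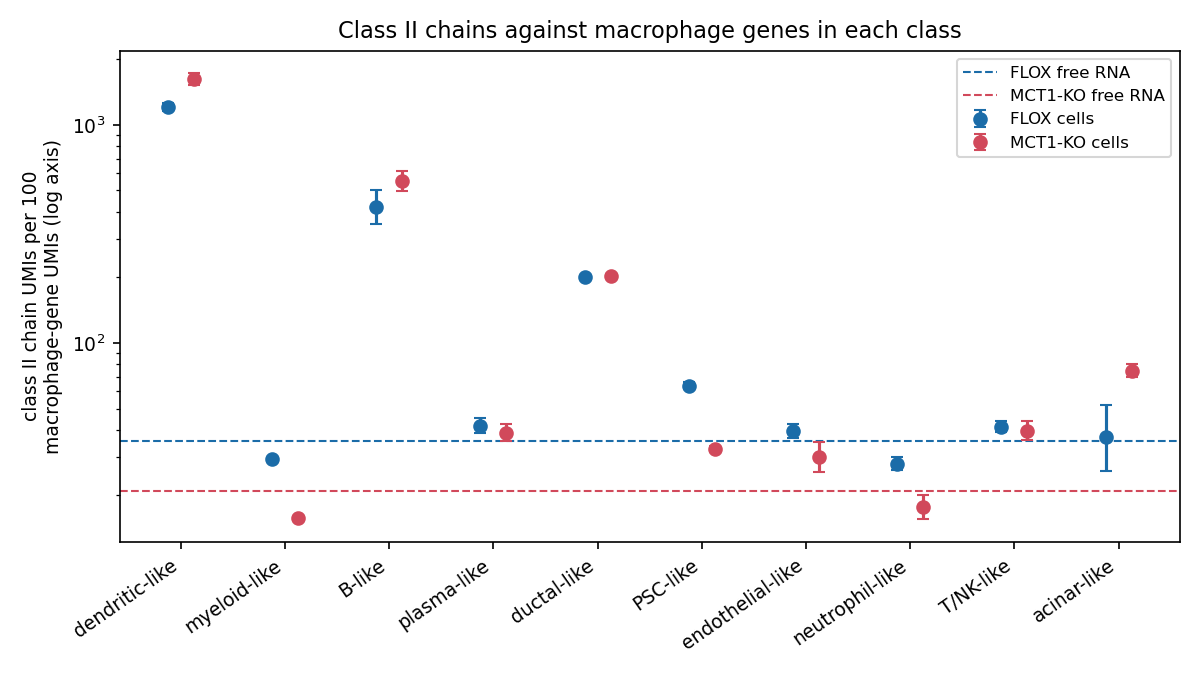
Classical chain UMIs per 100 UMIs of the macrophage genes C1qa, C1qb, C1qc, Lyz2, Apoe and Csf1r, on a log axis, by cell class and library (blue FLOX, red MCT1-KO) with 95% counting intervals and dashed lines for free RNA at 35.5 and 20.9. Ductal-like cells lie at 201 and 203, above the lines, while endothelial-like and neutrophil-like cells lie nearer to them, T/NK-like cells lie at 41.3 and 39.7 and acinar-like cells of MCT1-KO lie at 74.6.

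The highest class II level among the ductal-like clusters was in the one led by interferon-induced genes (Gbp6, Gbp10, Iigp1 and Cxcl10), with 153 and 197 cells. Its classical chains were at 3527 CPM (3451 to 3604) and 1873 CPM (1819 to 1928), and the other 4 clusters lay between 2070 and 2344 CPM in the FLOX library and between 922 and 979 CPM in the library labelled MCT1-KO. Ciita was at 58.7 CPM (49.3 to 69.4) and 33.9 CPM (27.0 to 42.0) in this cluster, against 9.11 and 4.40 CPM in the other ductal-like clusters together. This cluster's classical chains still differed between the libraries at 0.531 (0.512 to 0.551). The cluster with Msln and Krt19 among its leading genes, in which ductal markers were highest, held 2221 and 979 CPM (0.441, 0.431 to 0.450).

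PSC-like cells, at which the deletion was aimed, had the ratio nearest to 1 among the classes below the level of free RNA. None of their 6 members with at least 50 UMIs was 1.5-fold lower (11.2% of 8579 genes) or higher (9.87%). The classical chains were at a ratio of 0.862 (0.826 to 0.900), with 1732 and 1493 CPM in 236 and 423 cells, and H2-DMa at 63.1 and 66.8 CPM (1.06, 0.851 to 1.32). The 6 macrophage genes were higher in these cells of the library labelled MCT1-KO, at 2716 and 4564 CPM (1.68). The classical chains per 100 macrophage UMIs were 63.8 and 32.7, or 1.80 and 1.56 times the proportion in free RNA.

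In plasma-like, endothelial-like, T/NK-like and neutrophil-like cells the members were also lower. The counts at least 1.5-fold lower were 4 of 5 in plasma-like cells (13.7% of genes), 6 of 6 in endothelial-like cells (14.1%), 5 of 6 in T/NK-like cells (9.65%) and 6 of 6 in neutrophil-like cells (10.3%), among members with at least 50 UMIs. No member was 1.5-fold higher in plasma-like (21.1% of genes), endothelial-like (7.25%), T/NK-like (7.02%) or neutrophil-like cells (13.8%). The macrophage genes were lower in the same classes, at ratios of 0.664 in plasma-like, 0.440 in endothelial-like, 0.464 in T/NK-like and 0.573 in neutrophil-like cells, and their part in these counts was not tested. In free RNA 8 of 10 were 1.5-fold lower (9.56%) and none higher (5.28%). Plasma cells turn the class II genes off while they mature. Plasma-like cells held 0.590 and 0.429 classical chain UMIs per Cd74 UMI, the lowest values of any class, against 1.45 and 1.52 in dendritic-like cells. In acinar-like cells 4 of 6 members were at least 1.5-fold higher, but so were 67.3% of all 3871 genes there, none was lower (4.29%), and only 31 cells stood behind the FLOX value.

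Across the 46 combinations of cluster and library, the genes most like the summed classical chains were the other members. Pearson's r of log2(CPM + 10) was 0.985 for Cd74, 0.951 for H2-DMa and 0.891 for H2-DMb1, ranks 4 to 6 of 12699 genes after the chains themselves. The first genes from outside the list were Ifi30 (0.861), a thiol reductase of antigen processing, Rasgef1b (0.858), Pld4 (0.854), Fgd2 (0.853), Ly86 (0.851), Psap (0.844), Cd86 (0.841), a costimulatory ligand, Cd72 (0.837) and Gm6377 (0.833). Ciita ranked 21 (0.814). H2-DMb2 (rank 278, r = 0.606), H2-Ob (569, 0.515) and H2-Oa (820, 0.447) ranked lower. The points share libraries, depth and free RNA, and r is a description only.

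Other genes of the pathway were counted from lists, beside the share of all genes past 1.5-fold in the same class. The share that was lower was 9.24% in myeloid-like, 13.1% in dendritic-like, 19.1% in B-like, 8.79% in ductal-like and 9.65% in T/NK-like cells, and the share that was higher was 6.71%, 9.29%, 14.9%, 5.59% and 7.02% in that order. Counts of 1 of 7 or 8 genes lie near these shares. Of the 7 transcription factor genes that work with Ciita (Rfx5, Rfxap, Rfxank, Nfya, Nfyb, Nfyc and Creb1), 1 was at least 1.5-fold lower in myeloid-like cells and 1 in ductal-like cells, and none was higher. In both classes this was Rfxank, a subunit of RFX, at 10.2 and 5.26 CPM in myeloid-like cells (0.516, 0.371 to 0.709) and at 7.63 and 4.27 CPM in ductal-like cells. Of 8 endosomal genes none was 1.5-fold lower in myeloid-like cells and 1 was higher, the protease gene Ctsl with 510 and 822 CPM (1.61, 1.56 to 1.66). In dendritic-like cells Ctsb was lower at 256 and 141 CPM (0.550), 1 of 8. In ductal-like cells 1 of 8, Ctss, the protease that trims the invariant chain, was lower at 95.2 and 42.5 CPM (0.446), and in T/NK-like cells 4 of 8 were lower, namely Ctss (0.609), Ctsb (0.597), Ctsh (0.324) and Lgmn (0.639), beside a ratio of 0.464 for the 6 macrophage genes in these cells. In B-like cells 4 of the 8 had 50 UMIs, and Ifi30 was lower (0.460) and Lgmn higher (2.12, 0.849 to 6.85).

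Of 5 genes that act on the turnover of class II, March1 encodes the ubiquitin ligase that removes it from the surface and Cd83 opposes that ligase. Cd83 was lower in myeloid-like cells at 813 and 450 CPM (0.553, 0.534 to 0.572), the 1 gene of 5 past 1.5-fold there. It was also lower in B-like (0.343), ductal-like (0.269) and T/NK-like cells (0.487). March1 was at 81.2 and 39.1 CPM in dendritic-like cells (0.481, 0.302 to 0.744), 1 of 3 with enough UMIs, and at 75.6 and 60.2 CPM in myeloid-like cells (0.796). March1 also was lower in ductal-like cells (0.388), and Il10 in T/NK-like cells just reached the threshold for higher with an interval that held 1. H2-Eb2 had under 50 UMIs in each of the 5 classes examined.

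Of 6 costimulation and class II receptor genes, 2 were at least 1.5-fold lower in myeloid-like cells, Icosl (0.584) and the class II receptor Lag3 (0.508). None of 4 was lower in dendritic-like cells, and none of 1 in B-like cells. In myeloid-like cells Icosl was at 19.2 and 11.2 CPM and Lag3 at 11.7 and 5.94 CPM. The part of T cell RNA in the Lag3 value was not tested. In ductal-like cells 3 of 5 were lower. These were Cd80 at 3.31 and 2.16 CPM, Cd86 at 8.73 and 3.87 CPM and Cd40 at 0.986 and 0.382 CPM. Their ratios were 0.655, 0.444 and 0.387, beside 0.435 for the 6 macrophage genes, whose part was not tested. In T/NK-like cells 2 of 4 were lower, Cd86 at 50.8 and 20.7 CPM (0.408) and Lag3 at 182 and 94.2 CPM (0.518). The macrophage genes were at 0.464 there. None was 1.5-fold higher in these classes.

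Genes of the interferon gamma axis, which acts upstream of Ciita in macrophages and tumor cells, did not all differ the same way. Ifng itself was at 421 CPM in T/NK-like cells of the FLOX library and 111 CPM in the library labelled MCT1-KO (0.264, 0.223 to 0.311). Irf1, a transcription factor that drives Ciita, was lower in ductal-like cells at 519 and 248 CPM (0.477, 0.466 to 0.487), and was at 181 and 186 CPM in myeloid-like cells (1.03, 0.967 to 1.09). Ifngr1, a receptor chain, was higher in myeloid-like (1.56) and dendritic-like cells (1.62). Jak2, a kinase of the receptor, was higher in myeloid-like cells at 54.0 and 81.3 CPM (1.51, 1.36 to 1.66) and lower in dendritic-like cells at 462 and 293 CPM (0.633, 0.536 to 0.746). Jak1, the other kinase, was lower in B-like cells (0.646, 0.436 to 0.978), and Socs1, an inhibitor of the pathway, was at 0.629 in dendritic-like cells with an interval that held 1 (0.345 to 1.10). Irf8, a factor of dendritic and B cells, was lower in dendritic-like cells at 983 and 395 CPM (0.402, 0.351 to 0.460) and in B-like cells (0.331). The 15 dendritic markers summed to 3461 and 2031 CPM in dendritic-like cells. The part of the mixture of dendritic kinds in the Irf8, Jak2 and Ciita values of this class was not tested. In ductal-like cells Irf8 was lower at 5.60 and 2.40 CPM (0.429), beside 0.435 for the 6 macrophage genes there.

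MHC class I, which shows peptides from the cytosol to CD8+ T cells, differed less than class II in some classes. In myeloid-like cells none of 6 genes (H2-K1, H2-D1, B2m, Tap1, Tapbp and Nlrc5) was 1.5-fold lower or higher, and their median ratio was 0.852, beside 0.666 for the class II members. H2-K1, a heavy chain, was at 1691 and 1371 CPM there (0.811, 0.794 to 0.828), and B2m, the light chain, at 5182 and 3916 CPM (0.756, 0.747 to 0.765). In ductal-like cells H2-K1 alone of the 6 passed 1.5-fold, with 1580 and 1046 CPM (0.662, 0.654 to 0.670). In dendritic-like cells 1 of 6, Tap1, was lower (0.613), in B-like cells 1 of 3, H2-K1 (0.575), and in T/NK-like cells none of 6. The median class I ratio was further from 1 than that of the class II members in dendritic-like cells (0.797 against 0.959) and in B-like cells (0.738 against 0.768), and nearer to 1 in ductal-like cells (0.743 against 0.452).

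Myeloid-like cells carried 63.6% of all classical chain UMIs of kept cells in the FLOX library and 49.8% in the library labelled MCT1-KO, and ductal-like cells 21.8% and 29.1%. Dendritic-like cells carried 7.88% and 8.94%. Over all kept cells the classical chains were at 5879 and 2318 CPM (0.394, 0.392 to 0.396). That ratio is lower than in myeloid-like cells. The share of kept cells that were myeloid-like was 25.6% and 16.3%, and they held 24.1% and 12.6% of the UMIs of kept cells. The part of cell composition in the ratio over all kept cells was not tested.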

How the data were processed

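Single-cell RNA was measured in 1 FLOX and 1 MCT1-KO library, grouped by their titles. Reads had been trimmed by the authors (Fastp) and assigned to barcodes and genes by SeekOneTools, and the deposited matrices hold raw UMI counts of all barcodes. Per the labels, Seurat 4.0.0 was used and the build was human GRCh38, although all identifiers are mouse. The labels name a microwell kit and the methods droplet kits. Barcodes with at least 500 UMIs, 200 to 5000 genes and at most 8% mitochondrial UMIs were kept, and 2060 and 1231 barcodes above 5000 genes were left out. Seurat 5.3.0 (R 4.3.3) integrated the libraries on 1994 of 2000 variable genes, after class II genes had been withheld, with 20 dimensions at resolution 0.8. Clusters were named by markers, needing 3 detected in 10% of cells. The thresholds of naming were set after the clusters had been seen. Doublets were left in. UMIs were summed per class with python 3.11.15, numpy 2.4.6 and scipy 1.17.1, and CPM got exact Poisson intervals, ratios conditional exact intervals and shares Clopper-Pearson intervals. A gene with at least 50 UMIs and a 1.5-fold ratio counted as lower or higher. No test was possible with 1 library per group. The interval method was tried on simulated Poisson counts, the model it assumes, so variation between cells or animals was not covered. All members, the genes of the lists past 1.5-fold and the 10 most alike genes were named. One listed gene, and the counts of its list, are not reported here. Members and lists were chosen with earlier results of these data known. The heat shock list was added after the data were seen. March1 and March8 are the symbols used in the files. Figures were drawn with matplotlib 3.10.9.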

Additional observations from a re-analysis of the deposited data

Results flagged for a closer look

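One value of H2-Aa lay on the other side of 1 from that in most classes. H2-Aa was higher in dendritic-like cells of the library labelled MCT1-KO, at a ratio of 1.14 (1.11 to 1.18), while its ratio was below 1, with an interval that did not hold 1, in 7 other classes. In acinar-like cells it was also above 1, at 1.69 (1.03 to 2.97) with 16 UMIs in the FLOX library. As a share of the classical chain UMIs, H2-Aa made up 33.3% and 37.4% in dendritic-like cells of the FLOX and MCT1-KO libraries. Its share was also higher in MCT1-KO in myeloid-like cells (35.9% and 39.8%) and in free RNA (34.1% and 38.7%). Of the named classes only plasma-like cells went the other way (31.2% and 30.6%). The difference between classes was not tested, since each library is a single sample.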

How the results depend on the processing

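No paired analysis was possible because each group is 1 library and the labels number no replicates. In myeloid-like cells the ratio of the classical chains stayed below 1 under all 13 alternatives, between 0.480 and 0.694. It was 0.558 at resolution 0.4, 0.583 with a mitochondrial limit of 5%, 0.595 with no upper gene limit, 0.601 without likely doublets, 0.613 with cells chosen one by one by markers, 0.480 after subtracting free RNA by acinar genes, 0.617 as a mean over cells and 0.603 in thinned cells. It was 0.694 in thinned cells without an Hspa1a or Hspa1b UMI, a setting added after seeing the data. In dendritic-like cells the ratio was 1.12 with no upper gene limit, 1.10 without likely doublets, 1.14 with cells chosen one by one (17 and 5 cells), 1.08 as a mean over cells, 1.09 thinned and 1.10 thinned without those heat shock UMIs. Subtracting free RNA by acinar genes turned it to 0.801 and by collagen genes gave 1.04. By the acinar genes free RNA made up 32.9% and 8.89% of the UMIs of dendritic-like cells in the FLOX and MCT1-KO libraries, and by the collagen genes 8.06% in the MCT1-KO library and slightly less in the FLOX library. In ductal-like cells it stayed below 1 under all 13 alternatives and was 0.461 without integration, 0.465 with no upper gene limit, 0.446 without likely doublets, 0.445 with cells chosen one by one, 0.511 and 0.596 after subtracting free RNA by acinar and collagen genes, 0.407 as a mean over cells, 0.404 thinned and 0.418 thinned without heat shock UMIs. The count of 5 members at least 1.5-fold lower in myeloid-like cells was 2 at a threshold of 2-fold. It was 4 in all thinned cells and 2 among thinned cells without heat shock UMIs. In the other settings the count was 4 to 7. The share of all genes past the threshold was taken in the main setting only. In thinned cells a member still needed 50 UMIs after thinning, so the number of members that could be counted may differ. H2-Oa and H2-Ob were limited by depth in most classes, and no interval covers variation between animals.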
